A study of Mus musculus with 6 samples.

Results

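The epithelial alarmins and the IL-1 family were followed in crypts of the mouse intestine, the glands in which stem cells renew the gut lining, after activation of YAP. The set was given by name and holds 8 genes: Il33, its receptor Il1rl1, Tslp, Il25, Il18, Il1a, Il1b and the receptor antagonist Il1rn. Of these, 7 had a probe set annotated to a single gene and were among the 19938 genes tested; Il1rl1 was not analysed here. Crypts came from 3 control mice and 3 YAP transgenic mice, with 1 array for each. By the series title the transgene is YAP-S127A, a form of the coactivator YAP that escapes inhibition by the Hippo kinases, combined with Villin-rtTA, which makes it inducible by doxycycline in Villin-expressing intestinal epithelium. The series design gives 2 days of doxycycline for its mice and singles out no group, and EDTA was then used to release the crypts. The samples' own labels do not give the drug, the transgenes that the controls carried, or the strain, age and sex of the mice, so YAP and rtTA cannot be told apart as sources of a difference, nor can doxycycline if the controls went without it.

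Alarmins are cytokines that a barrier epithelium holds ready or makes when it is stressed or damaged. IL-33, IL-18, IL-1α and IL-1β belong to the IL-1 family and are made as precursors without a classical signal peptide. Calpains, caspases and gasdermin pores each take part in the maturation or release of some of these, not of all. IL-33 sits in the nucleus, signals through ST2, the product of Il1rl1, together with the shared chain IL-1RAP, and acts with TSLP and the tuft cell product IL-25 on mast cells, type 2 lymphoid cells and T cells.

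Il33 was the member with the large change, and its promoters were searched for the core motif of the TEAD factors, through which YAP reaches DNA. RefSeq gives Il33 a pair of start sites on the plus strand, and each window from 250 bases before to 50 bases after the start is printed here 5′ to 3′ in the build GRCm38.p6, with the motif GGAATG, or its reverse complement CATTCC, in capitals. The first window is chr19:29924863-29925162 and the second, at the start site further downstream, is chr19:29945540-29945839.
Il33, first start site: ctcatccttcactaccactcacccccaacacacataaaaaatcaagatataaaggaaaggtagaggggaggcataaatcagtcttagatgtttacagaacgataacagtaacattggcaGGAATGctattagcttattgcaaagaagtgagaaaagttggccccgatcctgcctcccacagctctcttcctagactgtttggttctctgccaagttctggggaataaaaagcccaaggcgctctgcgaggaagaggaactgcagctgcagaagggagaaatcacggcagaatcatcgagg
Il33, second start site: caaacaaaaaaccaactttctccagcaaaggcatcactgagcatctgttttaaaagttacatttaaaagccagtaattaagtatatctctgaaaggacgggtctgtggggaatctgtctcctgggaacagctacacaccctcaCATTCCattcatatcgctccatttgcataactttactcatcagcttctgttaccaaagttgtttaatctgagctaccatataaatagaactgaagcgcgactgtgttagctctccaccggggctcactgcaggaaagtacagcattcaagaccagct
The motif began 131 bases before the first start and 107 bases before the second. It stood in 14.7% of the 32851 promoter windows of all genes, and in every window of 4.04% of the 4163 genes that have several. The AP-1 motif TGANTCA, present in 7.81% of all windows, and the NF-κB consensus, present in 8.46%, were searched on both strands and were not in these windows. Among the 10 windows of 6 members in the table, 4 held the TEAD core: the pair of Il33, 1 of Il1rl1 and 1 of Il1rn. A match of these letters is a description of the sequence and not evidence of binding, and the arrays do not tell which start site was used.

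Array medians over all genes were close, at 6.74 to 6.79. The medians of the 6617 array controls, which were left out of the gene tests, were less level. They stood at 4.99, 4.97 and 4.97 in control mice 1, 2 and 3. In transgenic mice 1, 2 and 3 they were 5.33, 5.15 and 5.03, each above every control array. Whether this shift reached genes at low signal was not tested. As a reference for low signal, the 1203 measured genes of odorant, vomeronasal and trace amine receptors were used, whose 95th percentile lay between 5.72 and 5.99 on the 6 arrays. Of 12 markers of intestinal epithelium, 12 lay above that reference. The direct YAP targets Ccn1 and Ccn2 were higher in transgenic crypts by log2 changes of 4.49 (SE 0.08) and 1.65 (SE 0.14), while Yap1, whose probe set may not cover the transgene, had a signal of 9.41 ± 0.09 (SD, n = 3) in controls and of 9.17 ± 0.16 in transgenic crypts. Leaving out transgenic mouse 2 raised many counts given below. Over all genes 1495 were higher and 1336 lower with all arrays. Without control mouse 1, 2 and 3 the higher genes numbered 674, 737 and 669, and the lower genes 369, 421 and 462. Higher and lower genes numbered 1141 and 890 without transgenic mouse 1, 2802 and 3889 without mouse 2, and 1068 and 811 without mouse 3. The counts below with 1 array left out are to be read beside these. Precision is limited by having 3 arrays a group, and in bulk RNA fewer cells of a type and less RNA per cell cannot be told apart.

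The question was whether Il33 rises alone among the alarmins. Il33 rose 7.16-fold, the 36th largest increase of all 19938 genes. Il1rn, which encodes the secreted blocker of the IL-1 receptor, passed the test narrowly with a 1.45-fold rise. Il18, Il1b, Il1a, Tslp and Il25 did not pass it. With limma and a threshold of 0.05 on the adjusted p, 2 of the 7 members were higher and none lower, where 7.50% of all genes were higher and 6.70% lower. Il33 also rose at least 2-fold, as did 2.60% of all genes. For 4 members, namely Il33, Il18, Il1b and Il1rn, each transgenic array read above every control array, as it did for 16.5% of all genes; 0 members lay wholly below, against 17.0%.

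Il33 stood at 9.17, 9.08 and 9.06 on the log2 scale in control mice 1, 2 and 3 and at 11.78, 11.80 and 12.23 in transgenic mice 1, 2 and 3. The groups were far apart, and transgenic mouse 2 was no lower for Il33 than transgenic mouse 1. The log2 change was 2.84 (SE 0.13, 95% interval 2.52 to 3.16, limma's adjusted p = 4.8e-04). It lay between 2.69 and 2.92 with any 1 array left out, with an adjusted p of 0.00905 or less.

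**Figure D1:**
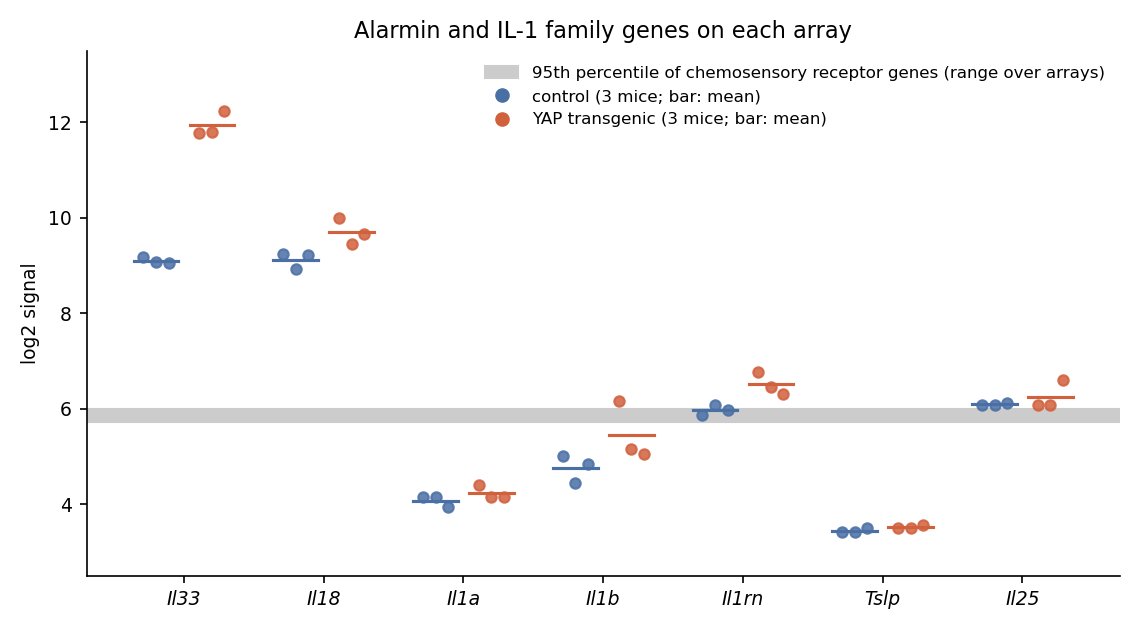
Log2 signal of the 7 measured alarmin and IL-1 family genes on each of 6 arrays; points are mice, bars are means of 3, and the grey band is the range over arrays of the 95th percentile of chemosensory receptor genes, a reference for low signal. Il33 lies between 9.06 and 9.17 in control and between 11.78 and 12.23 in transgenic crypts, while Tslp and Il1a lie below the band on every array.

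Il18 encodes a cytokine that enterocytes make constitutively and that caspase-1 matures. It stood at 9.24, 8.92 and 9.21 in control and 9.98, 9.45 and 9.67 in transgenic crypts. The groups did not overlap, and transgenic mouse 1 was the highest. The log2 difference of 0.58 (SE 0.16, 95% interval 0.19 to 0.97) missed the threshold with limma's adjusted p = 0.0643. Without transgenic mouse 2 it passed (0.70, adjusted p = 0.0178).

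Il1b, a cytokine made mostly by activated myeloid cells, stood at 4.998, 4.44 and 4.85 in control and 6.15, 5.16 and 5.04 in transgenic crypts. Only transgenic mouse 1 exceeded the reference for low signal, and the difference of 0.69 (SE 0.32, limma's adjusted p = 0.202) fell to 0.34 without that mouse. Il1rn stood at 5.87, 6.08 and 5.98 in control and 6.77, 6.45 and 6.31 in transgenic crypts, with transgenic mouse 1 again the highest. Its log2 change was 0.53 (SE 0.13, 95% interval 0.21 to 0.86, limma's adjusted p = 0.0470). It was no longer called when control mouse 1, 2 or 3 was left out (adjusted p = 0.174, 0.116 and 0.150), without transgenic mouse 1 or 3 (0.0648 and 0.0507), and under the replicate block (0.105), quantile normalization (0.0812) and median centring (0.0554). Markers of myeloid cells and of T cells, given below, were also highest in transgenic mouse 1, as was the median of the array controls. The part of any of these in Il1b and Il1rn was not tested.

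Il1a, an alarmin of keratinocytes and other epithelia, read 4.14 on 4 of the 6 arrays, with 3.94 in control mouse 3 and 4.40 in transgenic mouse 1. Tslp, the epithelial cytokine that acts on dendritic cells, lay between 3.41 and 3.56 on every array. Il1a and Tslp were thus below the reference for low signal on all arrays, and these probe sets say little about either gene. Il25 read 6.08 on 4 arrays, 6.11 in control mouse 3 and 6.59 in transgenic mouse 3, just above the reference. Identical readings of this kind are common at low signal in the deposited table: 47.8% of the genes in the lower part of the signal range had a repeated value, against 11.2% of those above the median. The log2 differences were 0.15 for Il1a (95% interval -0.10 to 0.41), 0.08 for Tslp (-0.08 to 0.24) and 0.16 for Il25 (-0.20 to 0.52), and limma's adjusted p was 0.379, 0.458 and 0.516.

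The measured change of Il33 was larger than that of each other member. Taken within each array, the Il33 change exceeded that of Il18 by 2.26 (95% interval 1.58 to 2.94), of Il1rn by 2.30 (1.53 to 3.08) and of Il1b by 2.15 (0.82 to 3.48). The excess over Il1a, Tslp and Il25 was 2.69 (2.10 to 3.27), 2.76 (2.36 to 3.15) and 2.68 (2.54 to 2.82). Because Il1a, Tslp, Il25 and Il1b, whose 3 controls lay below the reference, read at or near low signal, a change in these 4 genes could be understated and the excess of Il33 over them overstated. These intervals use the spread of 6 arrays alone. By least squares over all genes without moderation, chosen after the data were seen, the adjusted p of these 6 differences was at most 0.0112, and limma's moderated fit gave 5.3e-06 or less. The moderated value is too small, since subtracting Il33 gives every gene the same noise. Il33 had the 36th largest increase of 19938 genes, where the median log2 change was 0.03, so a typical gene would differ from it too. The share of all genes that pass was not counted, and passing is not particular to these members. The exact two-sided permutation test gave p = 0.1 for each of the 6 differences, the smallest value that 3 against 3 arrays allow. Il33 was the only member whose measured change exceeded 2-fold. A change of that size in Tslp, Il1a, Il1b or Il25 could not be judged from readings at or near low signal.

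**Figure D2:**
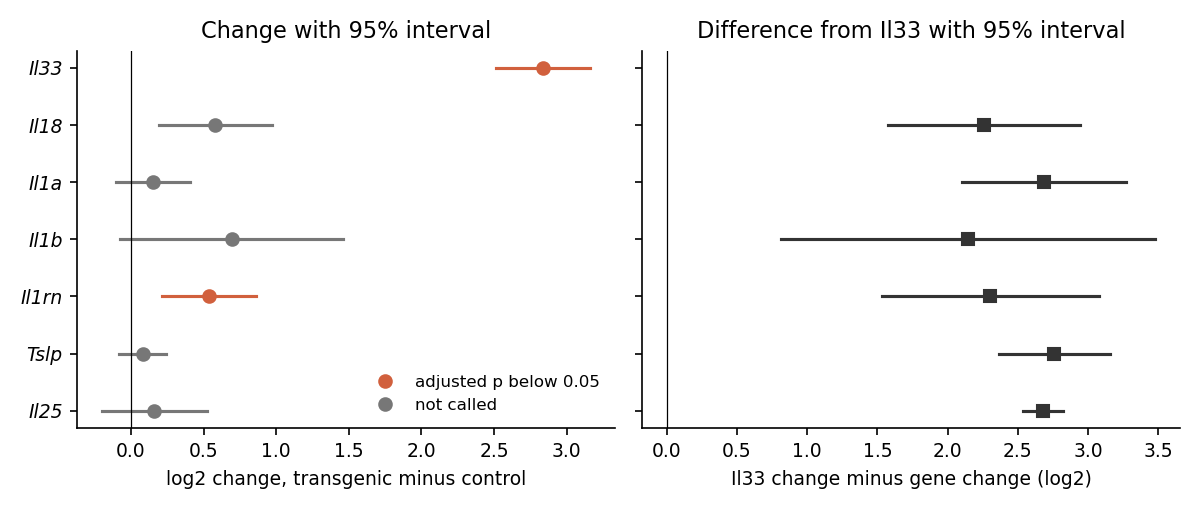
Left, log2 change of each member, transgenic minus control, with limma's 95% interval; right, the change of Il33 minus that of each other member, with a 95% interval from the spread of the 6 arrays. Il33 changed by 2.84, and each interval of the difference from Il33 lies above 0, the lowest bound being 0.82 for Il1b.

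The other ligands of the IL-1 family showed no call. The 10 family ligands measured comprise 5 of the members and the IL-36 group with its relatives, which the annotation still names Il1f5, Il1f6, Il1f8, Il1f9 and Il1f10. Of the 10, 2 rose (20%, against 7.50% of all genes), Il33 and Il1rn, and none fell. The median log2 change was 0.16 against 0.03 over all genes. Only 3 of the 10 had a mean above the reference for low signal. The count was 1 with any control mouse or transgenic mouse 1 or 3 left out, and 3 without transgenic mouse 2.

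Measured genes next to Il33 on the chromosome had smaller log2 changes. Of the 10 measured genes nearest to it in chromosomal order, 1 rose and 1 fell, with log2 changes between -0.997 and 0.59. Over all genes 7.50% were called higher and 6.70% lower. The immediate neighbour Ranbp6, a relative of importins, differed by 0.09. Trpd52l3, on the other side, read 5.51 on all 6 arrays, below the reference for low signal, so its reading says little about that gene. The means of Gldc, 5.56 and 5.55, were below the reference too. Ermp1, a metallopeptidase of the endoplasmic reticulum, rose by 0.59, and 9930021J03Rik fell by 0.997 on the log2 scale.

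**Figure D3:**
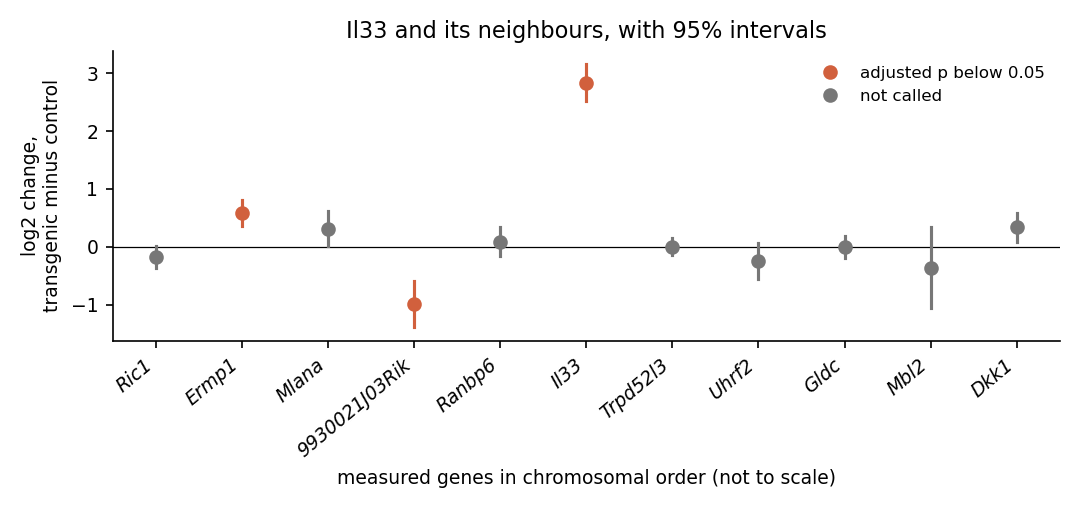
Log2 change, transgenic minus control, of Il33 and the 5 measured genes on either side of it in chromosomal order, with limma's 95% intervals. Il33 stands at 2.84, and its 10 neighbours lie between -0.997 and 0.59.

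Receptors, decoys and binding proteins of these cytokines were higher for 4 of 13 measured genes (30.8%, against 7.50% of all genes). None was lower, and the median was 0.29. The largest change was in Il18bp, the secreted decoy that neutralises IL-18. It stood at 7.29, 7.76 and 7.34 in control and 9.35, 9.13 and 8.25 in transgenic crypts, higher by 1.45 (SE 0.30, limma's adjusted p = 0.0273), with transgenic mouse 3 the lowest of its group. Il7r, a receptor chain that TSLP and IL-7 share and that lymphocytes carry, rose by 0.69 (SE 0.09), and Crlf2, the specific TSLP receptor chain, by 0.33 (SE 0.07). Il1rl2, the IL-36 receptor, rose by 0.45 (SE 0.09), but from 4.35 to 4.80, below the reference for low signal. The shared chain Il1rap, which IL-33 and IL-1 need, was named after its value was seen and differed by -0.38 (SE 0.13, limma's adjusted p = 0.104), all 3 transgenic values being below the controls. Leaving out control mouse 1, 2 or 3 or transgenic mouse 1 left 1 of the 4 called, against 2 without transgenic mouse 3 and 5 without transgenic mouse 2. Il7r kept its call in each case, and Il18bp lost it without any 1 control (adjusted p up to 0.119) or transgenic mouse 1.

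Genes for maturation and release included the largest change of the pathway. Capn2, the large subunit of calpain 2, a protease of the class that cleaves the IL-1α precursor, stood at 6.76, 6.94 and 6.58 in control and 11.02, 10.49 and 10.34 in transgenic crypts. The groups were over 3 log2 units apart, and the change was 3.85 (SE 0.19, limma's adjusted p = 5.1e-04). Gsdmd, which forms the membrane pore through which IL-1 family cytokines leave the cell, stood at 8.90, 8.90 and 9.09 in control and 10.44, 9.91 and 10.28 in transgenic crypts, higher by 1.25 (SE 0.15, limma's adjusted p = 0.00416). Both kept their calls with any 1 array left out.

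Of 21 genes of maturation and release, 6 rose (28.6%, against 7.50% of all genes) and none fell, with a median of 0.25. Beside Capn2 and Gsdmd they were the cytosolic DNA sensor Aim2 (0.97, SE 0.17), the apoptotic caspase Casp8 (0.54, SE 0.09) and, named after their values were seen, Naip5 (0.99) and Naip6 (0.59), sensors of bacterial flagellin whose near-identical copies an array can confuse. Casp1, also named after its value was seen, encodes the protease that matures IL-18 and IL-1β and differed by -0.29 (limma's adjusted p = 0.436). Its adaptor Pycard stood at 11.23, 11.38 and 11.39 in control and 9.81, 11.10 and 10.04 in transgenic crypts, a difference of -1.02 (limma's adjusted p = 0.0967) in which transgenic mouse 2 lay near the controls. The sensor Nlrp6 differed by -1.12 (limma's adjusted p = 0.0566). Pycard and Nlrp6 were named after their values were seen, and 2 genes of this list were lower when transgenic mouse 2 was left out. The 6 higher genes became 3, 2 and 2 without control mouse 1, 2 and 3, and 4 without transgenic mouse 1 or 3. The epithelial gasdermins Gsdmc2 and Gsdmc4, named after their values were seen, varied widely among the controls and were not called. In control mice 1, 2 and 3 Gsdmc2 stood at 8.97, 12.15 and 11.33.

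Signalling components changed little and in both directions. Of 18 adaptors, kinases and NF-κB subunits, 4 rose (22.2%, against 7.50% of all genes) and 1 fell (5.56%, against 6.70%). The median was 0.04. Ikbkb, the kinase that releases NF-κB, rose by 0.54 (SE 0.07), Irak2, a kinase of the receptor complex, by 0.62 (SE 0.10), the subunit Nfkb2 by 0.44 (SE 0.10) and Rel, named after its value was seen, by 0.47 (SE 0.12). Irak3, which restrains that complex, fell by 0.51 on the log2 scale (SE 0.09). The adaptor Myd88, shared by the signalling receptors of the IL-1 family and named after its value was seen, differed by -0.20 (limma's adjusted p = 0.379). Without control mouse 1, 2 or 3 the counts were 1, 2 and 1 higher and 0, 0 and 1 lower. Leaving out transgenic mouse 1 or 3 gave 2 higher and 1 lower. Leaving out transgenic mouse 2 gave 6 and 4, where 2802 and 3889 of all 19938 genes were higher and lower. Ikbkb kept its call throughout.

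NF-κB targets, which IL-1 family receptors induce, rose for 3 of 21 (14.3%, against 7.50% of all genes), with none lower and a median of 0.25 against 0.03 over all genes. The feedback inhibitor Tnfaip3, which encodes A20, stood at 7.77, 7.84 and 7.58 in control and 8.99, 8.61 and 8.64 in transgenic crypts, higher by 1.02 (SE 0.13, limma's adjusted p = 0.00546). The adhesion molecule Icam1 rose by 0.93 (SE 0.17) and Tnip1, a partner of A20, by 0.74 (SE 0.19). The inhibitor Nfkbia and the neutrophil chemokine Cxcl1, named after their values were seen, differed by 0.15 and 0.26 (limma's adjusted p = 0.565 and 0.372). The count was 1 without any 1 control, 2 without transgenic mouse 1 and 5 higher with 1 lower without transgenic mouse 2, and Tnfaip3 kept its call throughout.

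Other damage signals that an epithelium can make rose for 4 of 20 genes (20%, against 7.50% of all genes). None fell, and the median was 0.15. The growth factor Hbegf stood at 8.54, 8.93 and 8.65 in control and 10.56, 10.61 and 10.62 in transgenic crypts, higher by 1.89 (SE 0.11, limma's adjusted p = 6.9e-04). The calcium-binding proteins S100a11, S100a6 and S100a10 rose by 1.92 (SE 0.12), 3.12 (SE 0.47) and 0.67 (SE 0.10). S100a6 was highest in transgenic mouse 1, at 11.67 against 10.03 in each of the others. The calprotectin genes S100a8 and S100a9, named after their values were seen and typical of neutrophils and inflamed skin, differed by 0.08 and 0.23 and were not called. Both read below the reference for low signal on every array, so that a change in either could be understated. The 4 became 2 without control mouse 1. S100a6 lost its call when control mouse 1 or 3 was dropped (adjusted p up to 0.0569) and S100a10 when any 1 control was (up to 0.0545), while Hbegf and S100a11 kept their calls with any 1 array left out.

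**Figure D4:**
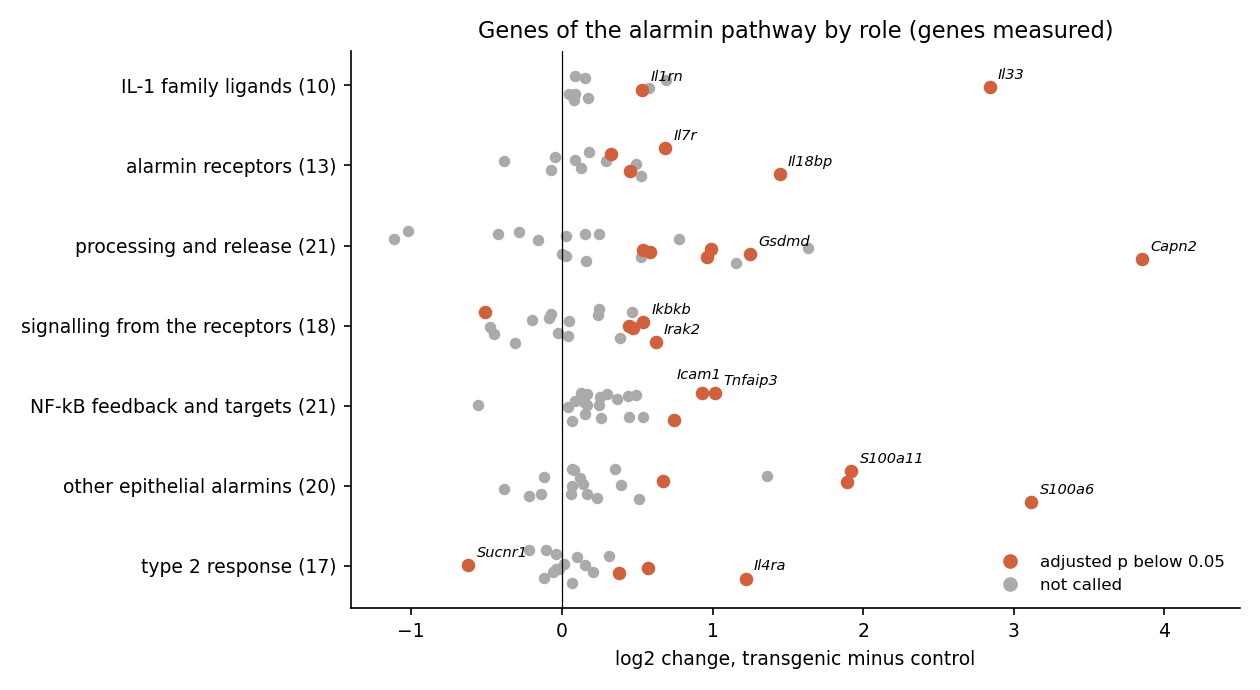
Log2 change, transgenic minus control, of the measured genes of 7 lists ordered by role, 1 point per gene with vertical scatter for legibility; coloured points had an adjusted p below 0.05 in limma, and up to 2 called genes per list are named. Capn2 at 3.85, S100a6 at 3.12 and Il33 at 2.84 lie furthest right, and most other genes lie within 1 log2 unit of 0.

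The type 2 response, which IL-33, TSLP and IL-25 start, included 4 called genes, 3 receptors and the transcription factor Gata3. Of 17 genes, 3 rose (17.6%, against 7.50% of all genes) and 1 fell (5.88%, against 6.70%), with a median of 0.02. Il4ra, the receptor chain shared by IL-4 and IL-13, stood at 8.74, 8.99 and 8.68 in control and 10.03, 10.11 and 9.93 in transgenic crypts, higher by 1.22 (SE 0.10, limma's adjusted p = 0.00162) that held with any 1 array left out. Il13ra1, its partner on epithelium, rose by 0.57 (SE 0.10) and the lymphocyte transcription factor Gata3 by 0.38 (SE 0.07), and the succinate receptor Sucnr1 fell by 0.62 on the log2 scale, below the reference for low signal in both groups. Il13 and Il5, named after their values were seen, differed by 0.10 and 0.16 (limma's adjusted p = 0.617 and 0.471). Il13 read near the reference for low signal, with group means of 6.24 and 6.34, and Il5 below it, with means of 4.27 and 4.42, so that a change in either could be understated. Without any 1 control the counts were 1 higher and 0 lower, and the lower gene was not called without transgenic mouse 1.

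Markers of the cells that make or receive these cytokines were read on the same arrays. Of 15 T cell and intraepithelial lymphocyte markers, 14 rose (93.3%, against 7.50% of all genes) and none fell. Their mean signal was 8.30 to 8.43 in control and 9.43 to 9.61 in transgenic crypts. Cd8a, Cd3d, Cd3g and Cd7 rose by 1.46, 1.59, 1.72 and 1.35. Of 21 myeloid markers, 8 rose (38.1%, against 7.50% of all genes) and 1 fell (4.76%, against 6.70%). Those higher included Tyrobp (1.71), C1qb (1.48), Csf1r (0.85) and C1qc (0.68). The lower one was Itgam, which differed by -0.43 (SE 0.11, limma's adjusted p = 0.0499). Lyz2 and Cd14 differed by -0.37 and -0.33 and were not called (limma's adjusted p = 0.233 and 0.317). Itgam, Lyz2 and Cd14 were picked out with their values already known. The mean signal of the 21 markers was 6.07 to 6.09 in control. It was 6.81, 6.63 and 6.44 in transgenic mice 1, 2 and 3, the order also seen for Il1rn and Il1b. The 8 became 3, 4 and 2 without control mouse 1, 2 and 3 and 5 without transgenic mouse 1.

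Markers of mast cells and type 2 lymphoid cells, which carry the IL-33 receptor, rose for 1 of 16 (6.25%, near the 7.50% of all genes), the shared gene Gata3, and their mean signal overlapped, at 5.64 to 5.94 in control and 5.83 to 6.10 in transgenic crypts; Gata3 was not called without any 1 control, and 2 markers were lower without transgenic mouse 3. None of 14 tuft cell markers passed limma's test after adjustment. Only 1, Gnat3, had an unadjusted p under 0.05, as had 5954 of all 19938 genes. Their mean was 7.53 to 7.78 in control and 7.86, 7.26 and 8.28 in transgenic mice 1, 2 and 3, and transgenic mouse 3, the highest, was also the array with the highest Il25. The named markers Gnat3 and Il17rb, the IL-25 receptor, differed by 0.28 and 0.49, and 6 tuft cell markers were higher without transgenic mouse 2. Gnat3 read below the reference for low signal on every array. Of 16 markers of stroma and endothelium, which can also make Il33, Vim rose by 0.95 and Lyve1 fell by 0.73 on the log2 scale. Each was 6.25% of the list, against 7.50% of all genes higher and 6.70% lower. Vim was not called without any 1 control or transgenic mouse 1, nor Lyve1 without control mouse 1 or 2 or transgenic mouse 1 or 3. The mean signal of the list overlapped, at 6.14 to 6.44 in control and 6.28 to 6.47 in transgenic crypts. None of 7 B and plasma cell markers was called by limma. Of these, 2 had an unadjusted p under 0.05, near the share over all genes, where 5954 of 19938 had one. They were Ms4a1, differing by -0.33, and Cd79b, by 0.46. The mean signal of the list was 6.06 to 6.13 in control and 6.18 to 6.52 in transgenic crypts. Ms4a1 read below the reference for low signal on every array. Epithelial markers rose for 5 of 12 (41.7%, against 7.50% of all genes) and fell for 1 (8.33%, against 6.70%), the transcription factor Cdx1 (-0.97). Those higher included the keratins Krt18 (1.53) and Krt20 (1.09) and the junction protein Cldn7 (0.42). Dropping control mouse 1, control mouse 3 or transgenic mouse 3 gave 2 higher markers, dropping control mouse 2 or transgenic mouse 1 gave 3, and Cdx1 lost its call when control mouse 3 was dropped. The part of any of these cell types in the rises of Il33, Il7r or Il4ra was not tested.

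**Figure D5:**
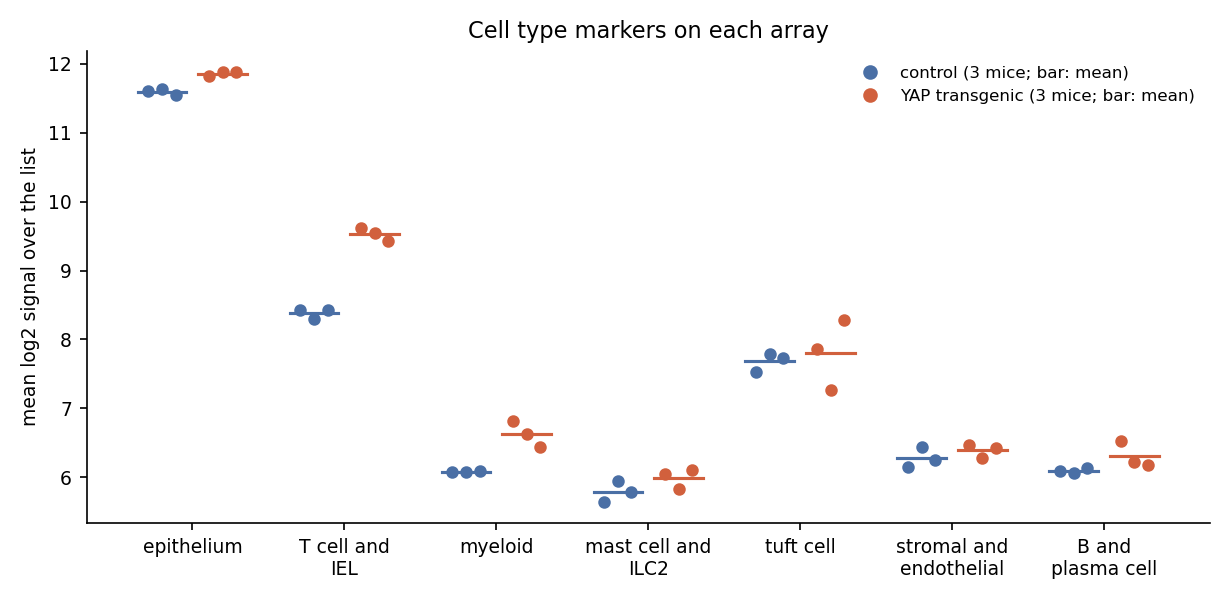
Mean log2 signal of 7 lists of cell type markers on each of 6 arrays; points are mice and bars are means of 3. The lymphocyte list lies at 8.30 to 8.43 in control and 9.43 to 9.61 in transgenic crypts, the stromal and mast cell lists overlap between groups, and the tuft cell list is spread from 7.26 to 8.28 among transgenic mice.

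The genes whose signals followed Il33 most closely over the 6 arrays were Wwc2, of the Kibra family of Hippo regulators (Pearson's r = 0.998), the transcription factor Ets1 (0.998), the leukocyte phosphatase Ptprc (0.996), the semaphorin receptor Plxna1 (0.996) and Niban1 (0.996), among 3436 genes whose values spanned at least 1 log2 unit. These values rest mainly on the step between the groups, which Il33 shares with every strongly changed gene, and describe the arrays only. Wwc2 rose by 4.10, Ets1 by 0.93 and Ptprc by 1.32.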

How the data were processed

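Total RNA from crypts of 6 mice was measured on Affymetrix arrays, and groups were taken from the sample titles. The authors deposited log2 signals of 35556 probe sets, made with Affymetrix Expression Console 1.1 per the submitters' processing notes. Background correction and normalization were not given in the sources used here. The scale was read from the values, 1.99 to 14.4. A change shared by all genes would be lost if the normalization centred the arrays. As array controls, 6617 probe sets with numbers below the first annotated one were left out. For 19938 genes with a single-symbol probe set, the one with the highest mean was used; every member measured had 1. Symbols came from the platform annotation, matched by Entrez identifier to RefSeq (21698 of 21789 probe sets), and promoters from RefSeq, GRCm38.p6.

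Differences were tested with limma 3.58.1 in R 4.3.3 (lmFit, then eBayes; two-sided; without covariates), with Benjamini-Hochberg adjustment over all genes at 0.05. Every change is transgenic minus control. Nothing says that same-numbered mice were paired, and nothing beyond the mouse numbers says that arrays are separate animals, so p-values measure the spread between these arrays. Lists were described by counts and medians, with no set test. In simulated data of this comparison with 19938 genes, 100 genes were given a log2 change of 1 and 100 a change of 2. The fit recovered 79% and 92% of them, with 5% false calls. The noise was normal and independent between genes, and fewer genes changed than the 2831 called in the data. Understated changes at low signal were not simulated, so these rates need not hold for the arrays. Members and lists, and the motifs, were chosen with earlier results of these data known. From each of 14 lists up to 4 called genes with the smallest p were named, or up to 2 others if none was called; others are marked. The 16 alternatives planned and 1 added later were leaving out each array, the replicate block, quantile normalization, median centring, signal filters, another prior, array weights, averaged probe sets, other thresholds and an unmoderated fit. Il1rl1, Il1r1 and other list genes without a single-symbol probe set were not analysed here.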

Additional observations from a re-analysis of the deposited data

How the results depend on the processing

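Il33 was called under all 14 alternatives other than thresholds, with a log2 change of 2.69 to 2.95 and an adjusted p of 1.8e-04 to 0.0105, and under both thresholds. Tslp, Il25, Il1a and Il1b were called under none. All 6 differences from Il33 passed wherever they could be fitted, without moderation included (adjusted p up to 0.0112). Apart from that unmoderated fit, these fits were moderated, which makes their p-values too small here, so their passing adds little. A typical gene, with the median log2 change of 0.03, would differ from Il33 too, so passing is not particular to these members. The exact two-sided permutation test gave p = 0.1 for each difference. The filters on signal removed Tslp, Il1a, Il1b and, under the stricter one, Il25 and Il1rn. Il1rn was not called under the replicate block (0.53), quantile normalization (0.49), median centring (0.53) or an adjusted p of 0.01 (0.53). Il18 was called under the replicate block (0.58), both signal filters (0.58), array weights (0.61) and an adjusted p of 0.10 (0.58).

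With 1 array left out, Il18 ranged from 0.44 to 0.70, Il1rn from 0.40 to 0.63 and Il25 from -0.011 (without transgenic mouse 3) to 0.25. Members called higher ranged from 1 to 3, and genes called over the whole array from 669 to 2802 higher and 369 to 3889 lower. Counts higher ranged from 1 to 3 for ligands, 1 to 5 for receptors, 2 to 7 for maturation and release, 1 to 6 for signalling, 1 to 5 for NF-κB targets, 2 to 5 for other alarmins, 1 to 3 for the type 2 response, 2 to 7 for epithelium, 0 to 6 for tuft cells, 2 to 9 for myeloid cells, 0 to 2 for mast cells and 0 to 1 for stroma. Counts lower ranged from 0 to 2 for maturation and release, 0 to 4 for signalling, 0 to 1 for NF-κB targets, the type 2 response, epithelium and stroma, and 0 to 2 for myeloid and mast cells.

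Of 450 values under the other alternatives, 380 kept their direction and side of the threshold or, for counts, stayed within 1.5 times. Whether the same numbers in the titles pair the mice was not settled. Deviations from the group means correlated at -0.13, 0.01 and 0.10 for mice 1, 2 and 3. Differently numbered mice gave -0.13 to 0.12, and with 3 arrays a group these values cannot exclude pairing. The replicate block gave 975 higher and 727 lower genes, 1 higher and 0 lower for signalling, 1 higher for NF-κB targets, 2 for epithelium and 0 for mast cells, and 0 lower for myeloid cells. Array weights gave 2459 higher and 3481 lower genes, 4 higher for tuft cells, 2 for mast cells and 1 for B cells, and 2 lower for maturation, 3 for signalling, 2 for myeloid cells and 1 for NF-κB targets, other alarmins and B cells.

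Quantile normalization and median centring gave 1 member and 1 ligand higher, 1 lower for maturation and 0 lower for myeloid cells, and the former 1 B cell marker higher. Genes above the median signal gave 2 receptors and 3 myeloid markers higher, 0 mast cell markers higher, 1 lower for maturation and 0 for signalling, the type 2 response and myeloid cells; the other filter gave 1 lower for maturation and 0 for the type 2 response. The trended prior gave 2 signalling genes higher. An adjusted p of 0.01 gave 661 higher and 386 lower genes, 1 member, 1 ligand, 1 receptor, 1 signalling gene, 1 NF-κB target and 1 type 2 gene higher, 2 for maturation, epithelium and myeloid cells, 0 for mast cells and stroma, and 0 lower for signalling, the type 2 response, myeloid cells and stroma. An adjusted p of 0.10 gave 2101 lower genes, 2 lower for maturation, 1 for NF-κB targets and B cells, and 2 stromal markers higher.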
